A study of Mus musculus with 6 samples.

Results

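The unfolded protein response and the integrated stress response were described in 4T1 mammary tumors through 45 genes listed by symbol for their known roles. Of these, 44 were measured, out of 19937 genes on the array. The genes were chosen with earlier results of these data known. The expression of the alanyl-tRNA synthetase gene Aars was not analysed here, because its probe set also names another gene. Each gene was read from a probe set that names exactly 1 gene, and from the probe set with the highest mean over all arrays where a gene had several. The study compared 3 tumors from mice given TKI258 with 3 tumors from mice given water. TKI258 (dovitinib) is an inhibitor of receptor tyrosine kinases, among them the FGF and VEGF receptors. It was given by mouth at 40 mg/kg every day for 14 days, and water was given on the same schedule. All 6 mice were Balb/C animals whose 4th mammary gland had received 750000 cells of 4T1, a mouse mammary carcinoma line grown in a host of the same strain, and treatment began on day 7. The labels give no age and no allele. Every tumor was hybridized to 1 Affymetrix array, the titles call the tumors of a group biological replicates, and all values here are log2 signals. An array reads the RNA of a whole tumor, so fewer cells of a type and less RNA per cell cannot be told apart.

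Cells slow protein synthesis and reprogram transcription when proteins fold poorly in the endoplasmic reticulum (ER) or when amino acids run short. In the integrated stress response, kinases such as PERK, GCN2 and HRI phosphorylate the initiation factor eIF2, which lowers general translation but favors translation of the transcription factor ATF4. ATF4 targets supply amino acids, charged tRNAs and glutathione, and include the factor CHOP. In the branches of the unfolded protein response other than that of PERK, IRE1 splices the Xbp1 message and the membrane-bound factor ATF6 is cut. The factors XBP1 and ATF6 raise ER chaperones and the machinery that pulls misfolded proteins out of the ER for degradation (ERAD). Poor blood supply, low oxygen and scarce nutrients, all common in solid tumors, are known triggers of these pathways.

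No member passed the threshold for a difference between TKI258 and water. In a limma linear model with Benjamini-Hochberg adjustment over all 34760 probe sets, 0% of the probe sets had an adjusted p under 0.05, while 2803 had an unadjusted p under 0.05. The smallest adjusted p was 0.196 over all probe sets and 0.548 among the members, for Ddit3. With 3 tumors against 3, an exact two-sided permutation test of a single gene cannot go below p = 0.1. The differences below are therefore descriptions of these tumors.

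The member means leaned below water in the TKI258 tumors. Of the 44 genes, 33 had a lower mean and 11 a higher mean in TKI258 tumors than in water tumors, and the median difference (TKI258 minus water) was -0.07. The split was 28 lower and 16 higher after quantile normalization, 37 and 7 after median centring, and 26 and 18 without TKI258 replicate 3. Of all genes, 43.4% had a lower mean and the median difference was 0.02. Among the 10923 genes whose mean signal reached the median of all probe sets, as that of 42 members did, 59.5% had a lower mean and the median difference was -0.03. An unadjusted p under 0.05 was reached by 5 members with a lower mean (Ddit3, Ppp1r15a, Cth, Shmt2 and Dnajb9) and by 0 with a higher mean. The share of all genes at that level was 3.35% lower and 3.79% higher, and 5.18% lower among the genes with signal at or above the median. The lower count rests on few arrays: it was 1 (Ddit3) when TKI258 replicate 3 was left out, 2 without water replicate 3, 3 without either tumor numbered 2, and 6 when TKI258 replicate 1 was left out.

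Non-overlapping values gave a list that shares 4 of its lower genes with the one above. In 5 members (Ddit3, Ppp1r15a, Shmt2, Dnajb9 and Manf) all TKI258 tumors lay below all water tumors, and in 2 (Derl3 and Syvn1) all TKI258 tumors lay above. The lower count was 4 after quantile normalization and 6 after median centring, and the higher count was 2 in both. Over all genes, 6.49% had lower values without overlap and 8.66% higher values without overlap. Among the genes with signal at or above the median these shares were 10.2% and 4.71%, so both counts of members lie close to the shares among genes of like signal. The plot of every member in every tumor shows both the small size of most differences and the uneven TKI258 group.

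**Figure D1:**
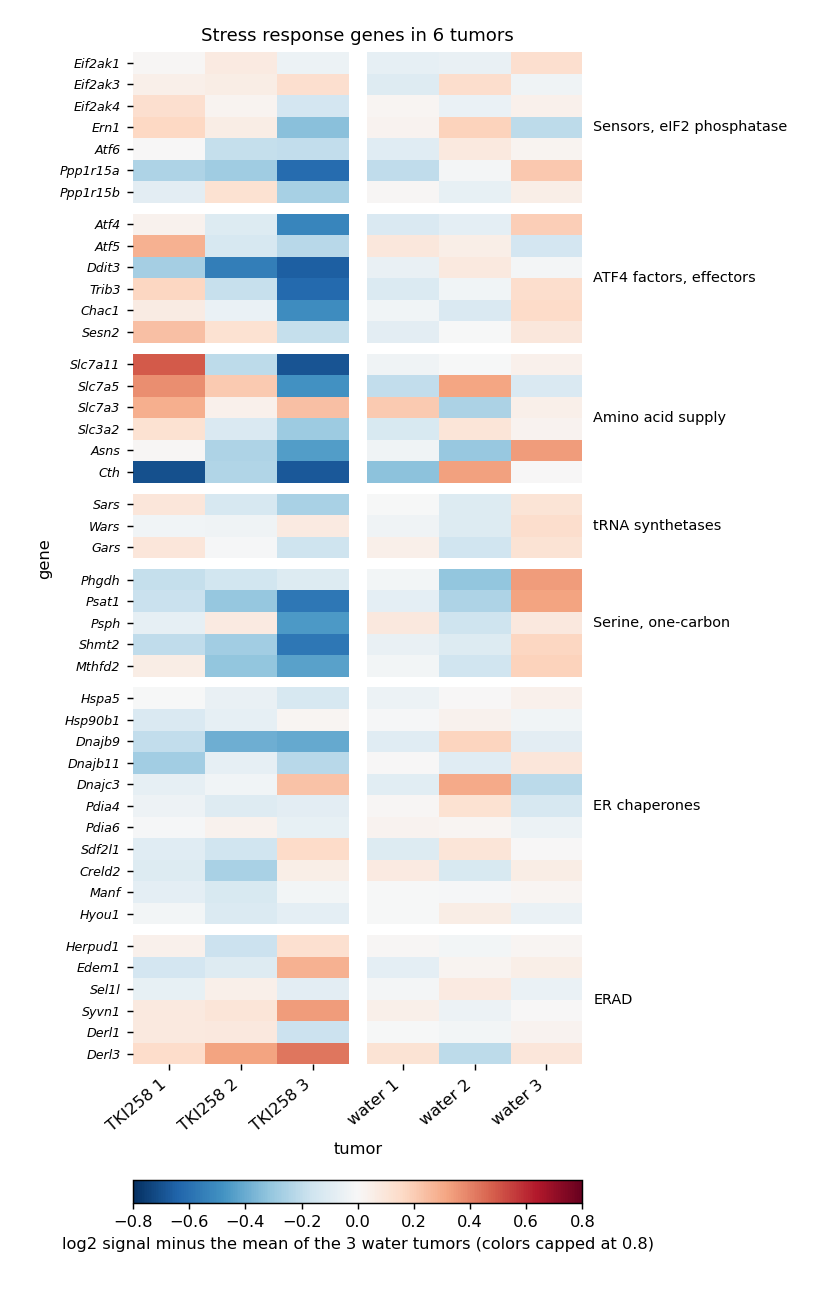
Log2 signal of the 44 measured stress response genes (rows, grouped by role) in 3 TKI258 tumors (left) and 3 water tumors (right), each value minus the mean of the 3 water tumors of that gene. Colors run from blue (below the water mean) to red (above it) and are capped at 0.8. TKI258 replicate 3 has the lowest TKI258 value in 12 of the 15 genes of the ATF4 arm, and ER chaperones and ERAD genes show paler colors in most rows. The same tumor is the lowest of TKI258 in 61.8% of the genes with signal at or above the median.

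The arrays were alike in general: correlations between arrays were 0.981 to 0.993 among TKI258 tumors and 0.988 to 0.992 among water tumors. The epithelial keratins Krt8 and Krt18 had log2 signals of 11.13 to 11.77 in TKI258 tumors and of 11.58 to 11.88 in water tumors, while array medians lay between 6.38 and 6.44. The other 7 of 9 tumor epithelium markers, such as Epcam and Cldn4, had higher means in TKI258 tumors, and the list means were 8.81, 8.59 and 8.90 in TKI258 tumors, against 8.71, 8.03 and 8.48 in water tumors. Markers of other cell types differed between tumors. The mean of 12 B and plasma cell markers was 5.32, 5.44 and 8.38 in TKI258 replicates 1, 2 and 3, against 6.67, 5.13 and 5.32 in water replicates 1, 2 and 3, and all 12 were highest in TKI258 replicate 3 among the TKI258 tumors. The mean of 11 adipocyte markers was 7.34, 7.97 and 8.78 in TKI258 tumors, against 7.26, 6.44 and 6.87 in water tumors. The mean of 12 keratinocyte markers was 4.90, 4.77 and 5.03 in TKI258 tumors, against 4.91, 6.98 and 6.54 in water tumors. Neutrophil markers had lower means in TKI258 tumors in 10 of 10 cases, with list means of 6.89, 6.62 and 6.34 in TKI258 tumors, against 7.05, 7.44 and 7.55 in water tumors. Macrophage markers also had lower means in 10 of 10 cases, with list means of 8.93, 9.04 and 8.92 in TKI258 tumors, against 9.10, 9.58 and 9.13 in water tumors. The list means of these myeloid cells did not overlap between the groups. The part of any of these cell types in the results below was not tested.

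Among the stress sensors and the eIF2 phosphatase subunits, the kinases and IRE1 showed no difference beyond their error, and Ppp1r15a had a lower mean. Of 7 genes, 4 had a lower and 3 a higher mean in TKI258 tumors (6 and 1 after median centring, 2 and 5 without TKI258 replicate 3). Eif2ak3 encodes PERK, Eif2ak4 GCN2, Eif2ak1 HRI and Ern1 IRE1; their differences lay between -0.04 and 0.08. Ppp1r15a encodes GADD34, the stress-induced subunit that returns the phosphatase to eIF2 and so ends the translation block. Its log2 signal was 7.21, 7.17 and 6.84 in TKI258 tumors, against 7.25, 7.44 and 7.67 in water tumors. The groups did not overlap, but the gap between TKI258 replicate 1 and water replicate 1 was small. The difference was -0.38 ± 0.15 (SE, limma adjusted p = 0.614). Atf6 encodes the membrane-bound factor that is cut on ER stress. It read 9.65, 9.45 and 9.45 in TKI258 tumors, against 9.55, 9.73 and 9.67 in water tumors, a difference of -0.13 ± 0.10 with overlapping groups (-0.19 without TKI258 replicate 1). Ppp1r15b, the constitutive partner of the phosphatase, had a pair of probe sets with opposite signs, -0.08 ± 0.12 in the brighter one and 0.12 ± 0.14 in the other.

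Ddit3 had the smallest p among the members. It encodes CHOP, a C/EBP-family factor that ATF4 induces and that is linked to cell death under long stress. Its log2 signal was 7.46, 7.17 and 7.07 in TKI258 tumors, against 7.66, 7.80 and 7.71 in water tumors. Every TKI258 tumor lay below every water tumor, and the TKI258 tumors were spread more widely, with an SD of 0.20 against 0.07 in water tumors. The difference was -0.49 ± 0.12, a 1.41-fold lower signal (95% interval -0.78 to -0.21, limma adjusted p = 0.548). The unadjusted p stayed under 0.05 in all 14 alternative settings that were run, while the adjusted p ranged from 0.424 to 0.837. The difference was -0.41 without TKI258 replicate 3.

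The remaining ATF4 factors and effectors had overlapping groups. Of the 6 genes in this role, 5 had a lower and 1 a higher mean in TKI258 tumors (3 and 3 without TKI258 replicate 3). Atf4 itself, whose product is controlled mainly at translation, read 9.46, 9.31 and 8.90 in TKI258 tumors, against 9.30, 9.35 and 9.62 in water tumors. The difference of -0.20 ± 0.17 was within the spread and shrank to -0.04 without TKI258 replicate 3 and to -0.10 without water replicate 3. Trib3, a pseudokinase that feeds back on ATF4 and CHOP, and Chac1, an enzyme that degrades glutathione, were named after their values were seen. Trib3 read 8.62, 8.27 and 7.83 in TKI258 tumors, against 8.34, 8.42 and 8.59 in water tumors, a difference of -0.21 ± 0.20 (-0.0034 without TKI258 replicate 3). Chac1 read 7.84, 7.72 and 7.27 in TKI258 tumors, against 7.74, 7.65 and 7.93 in water tumors, a difference of -0.16 ± 0.17 (0.0086 without that tumor). In both genes TKI258 replicate 1 lay above the water mean and TKI258 replicate 3 below all water tumors. Atf5, a related factor, and Sesn2, a stress-induced regulator of mTORC1, differed by -0.03 ± 0.15 and 0.06 ± 0.13.

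**Figure D2:**
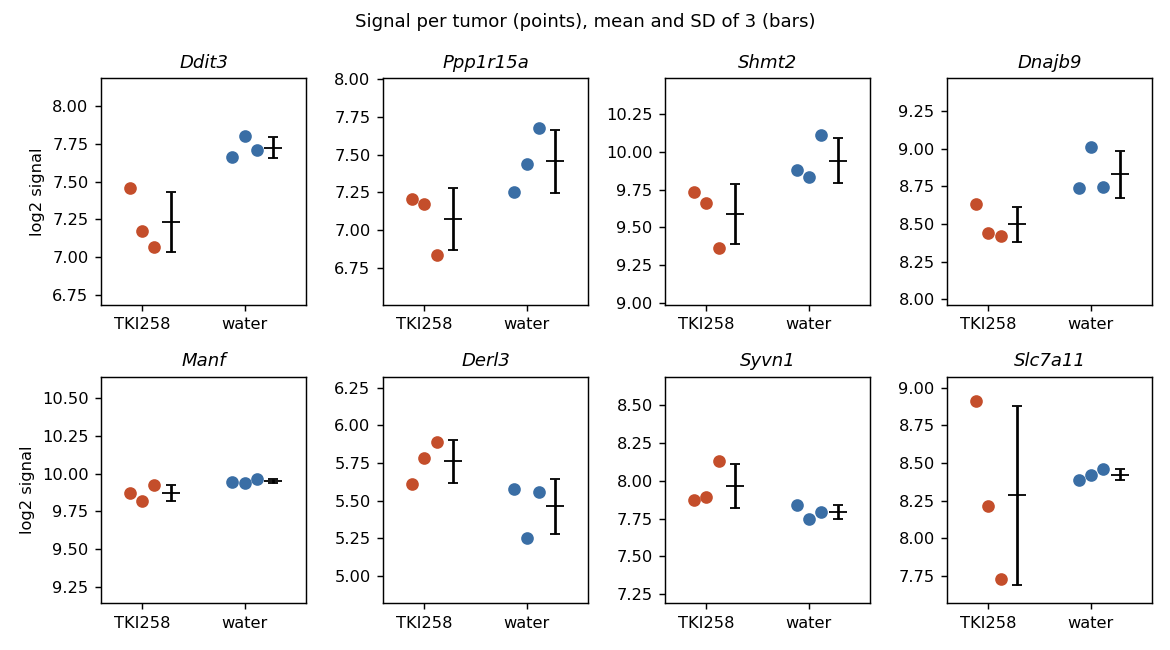
Log2 signal of 8 stress response genes in each tumor (points) with the mean and SD of 3 tumors per group (bars), TKI258 left and water right. All panels span the same log2 range. Ddit3, Ppp1r15a, Shmt2, Dnajb9 and Manf lie lower in TKI258 tumors without overlap, Derl3 and Syvn1 lie higher without overlap, and Slc7a11 spreads from 7.73 to 8.91 in TKI258 tumors around tightly grouped water tumors.

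Genes for amino acid uptake and synthesis differed among themselves. Of 6 genes, 4 had a lower and 2 a higher mean in TKI258 tumors (2 and 4 without TKI258 replicate 3). Cth encodes cystathionine gamma-lyase, which makes cysteine from methionine. Its log2 signal was 6.56, 7.03 and 6.59 in TKI258 tumors, against 6.94, 7.60 and 7.27 in water tumors, a difference of -0.54 ± 0.20 (limma adjusted p = 0.604). It was the member with the largest difference, although TKI258 replicate 2 lay above water replicate 1. Slc7a11, the cystine importer of system xc-, also feeds cysteine to glutathione and was named after its values were seen. It read 8.91, 8.21 and 7.73 in TKI258 tumors, against 8.39, 8.42 and 8.46 in water tumors. The water tumors were nearly equal (SD 0.04), and the TKI258 tumors lay on both sides of them (SD 0.59). The difference was -0.14 ± 0.28 over all tumors and 0.14 without TKI258 replicate 3. Asns, which makes asparagine and was also named after its values were seen, read 10.88, 10.62 and 10.42 in TKI258 tumors, against 10.83, 10.56 and 11.21 in water tumors (-0.23 ± 0.19). Single tumors decide its size: it was -0.12 without TKI258 replicate 3, and leaving out water replicate 3 gave -0.06, water replicate 2 -0.38. Slc7a3, a carrier of cationic amino acids with a signal below the median of the array, read 5.87, 5.62 and 5.82 in TKI258 tumors, against 5.79, 5.32 and 5.62 in water tumors (0.19 ± 0.14, and 0.06 without water replicate 2). The partners of the large neutral amino acid carrier, Slc7a5 and Slc3a2, differed by 0.03 ± 0.25 and -0.10 ± 0.13.

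Several ATF4-arm genes carry the letters of the composite ATF4-C/EBP element, TGATGNAA, in their promoters. The motif was searched on both strands of RefSeq promoter windows (GRCm38.p6, 250 bases before to 50 after each start), which 36 of the 45 members have. It was found in 6 of the 12 ATF4-arm genes with a window (Trib3, Chac1, Slc7a11, Asns, Gars and Aars), in 1 of 14 genes of the XBP1/ATF6 arm (Herpud1) and in 0 of 5 serine and one-carbon genes, against 4.51% of 27025 genes and 3.97% of 32851 windows. A match is a run of letters and was not shown to be bound in these tumors, and its absence says nothing about the factor. Because the genes were listed for their known roles, the shares describe the list only. Slc7a11 is shown with its 250 upstream bases (chr3:50443614-50443863, minus strand) because it holds 2 copies in opposite orientation and is the most spread member in TKI258 tumors; Chac1 (chr2:119351034-119351071, plus strand), Asns (chr6:7693210-7693247, minus strand) and Gars (chr6:55037956-55037993, plus strand) are shown with 15 bases on each side of the match. Each sequence runs 5′ to 3′ along the gene, and capitals mark the motif.
Slc7a11: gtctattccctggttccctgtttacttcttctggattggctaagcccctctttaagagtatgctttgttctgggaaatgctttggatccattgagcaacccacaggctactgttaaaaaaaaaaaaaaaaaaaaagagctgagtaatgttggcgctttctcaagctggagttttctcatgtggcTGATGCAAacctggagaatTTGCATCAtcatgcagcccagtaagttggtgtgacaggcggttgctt
Chac1: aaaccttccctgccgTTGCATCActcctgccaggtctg
Asns: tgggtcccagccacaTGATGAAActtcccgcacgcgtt
Gars: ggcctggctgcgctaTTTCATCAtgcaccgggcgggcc

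The Ddit3 promoter is shown because this gene had the smallest p. Its 250 upstream bases (chr10:127290543-127290792, plus strand) hold none of the motifs searched, and 1 UPRE core (GACGTG, given here on the other strand) lies after the start, at position 22.
Ddit3: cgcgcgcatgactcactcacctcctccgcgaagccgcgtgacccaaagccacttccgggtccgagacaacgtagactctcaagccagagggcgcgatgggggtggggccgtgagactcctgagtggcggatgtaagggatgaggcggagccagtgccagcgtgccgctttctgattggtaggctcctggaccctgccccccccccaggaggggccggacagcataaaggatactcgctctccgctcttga

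The tRNA synthetase genes, which ATF4 raises together with amino acid supply, differed little. Sars read 11.31, 11.08 and 10.95 in TKI258 tumors, against 11.21, 11.10 and 11.32 in water tumors (-0.10 ± 0.12, and -0.02 without TKI258 replicate 3). Gars read 10.42, 10.31 and 10.16 in TKI258 tumors, against 10.37, 10.16 and 10.44 in water tumors (-0.02 ± 0.11, and 0.045 without that TKI258 tumor). They charge tRNA with serine and glycine. Wars, the synthetase for tryptophan, differed by 0.0022 ± 0.10, and in all 3 genes the groups overlapped.

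Serine and one-carbon genes had lower means in TKI258 tumors in 5 of 5 cases (also after quantile normalization and median centring, and 4 of 5 without TKI258 replicate 3), with a median difference of -0.23. The pathway diverts a glycolytic intermediate into serine through Phgdh, Psat1 and Psph, and passes its carbon to folate in mitochondria through Shmt2 and Mthfd2. Shmt2 read 9.74, 9.66 and 9.36 in TKI258 tumors, against 9.88, 9.83 and 10.11 in water tumors. The groups did not overlap, and the difference was -0.35 ± 0.13 (limma adjusted p = 0.604). Psat1 read 10.16, 10.03 and 9.76 in TKI258 tumors, against 10.25, 10.09 and 10.66 in water tumors, a difference of -0.35 ± 0.18 (limma adjusted p = 0.658) in which 1 TKI258 tumor lay within the water range. It was -0.19 without water replicate 3. Phgdh, Psph and Mthfd2 differed by -0.15 ± 0.17, -0.15 ± 0.16 and -0.23 ± 0.16, with overlapping groups. Single tumors weighed on these values: TKI258 replicate 3 was the lowest TKI258 tumor in 4 of the 5 genes, and water replicate 3 the highest water tumor in 4 of the 5. Among the genes with signal at or above the median these shares were 61.8% and 33.9%. A list of 15 mitosis genes also had lower means in TKI258 tumors in 15 of 15 cases, with list means of 9.52, 9.60 and 9.50 in TKI258 tumors and 9.83, 9.85 and 10.03 in water tumors. The part of proliferation in the serine values was not tested. The 11 measured genes of a wider serine and one-carbon list split, with 5 lower and 6 higher means in TKI258 tumors and a median difference of 0.03.

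ER chaperones had slightly lower means in TKI258 tumors in 10 of 11 cases (8 of 11 after quantile normalization), most of them by less than 0.11. Their differences ran from -0.33 to 0.04 with a median of -0.07. Hspa5 encodes BiP, the main ER chaperone and the classic readout of the response, and was named after its values were seen. It read 12.41, 12.35 and 12.28 in TKI258 tumors, against 12.37, 12.41 and 12.45 in water tumors. The groups overlapped, and the difference was -0.07 ± 0.08 with a 95% interval from -0.26 to 0.13 (-0.03 without TKI258 replicate 3). The interval bounds the size of a difference in Hspa5 array signal in these tumors and does not show equality.

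Dnajb9 encodes ERdj4, a BiP co-chaperone that depends on XBP1 and restrains IRE1. It read 8.63, 8.44 and 8.42 in TKI258 tumors, against 8.74, 9.01 and 8.75 in water tumors. All TKI258 tumors lay below all water tumors, and the difference was -0.33 ± 0.11 (limma adjusted p = 0.591). Dnajb11, the co-chaperone ERdj3, read 9.75, 9.96 and 9.81 in TKI258 tumors, against 10.03, 9.93 and 10.13 in water tumors (-0.19 ± 0.10, limma adjusted p = 0.663). Manf, a secreted ER stress factor, read 9.87, 9.82 and 9.93 in TKI258 tumors, against 9.94, 9.94 and 9.96 in water tumors. Its groups did not overlap, but the difference was only -0.08 ± 0.08 (-0.05 without TKI258 replicate 2). The other chaperones and disulfide isomerases (Hsp90b1, Dnajc3, Pdia4, Pdia6, Sdf2l1, Creld2 and Hyou1) differed by -0.10 to 0.04 with overlapping groups. Pdia4 had a second, dimmer probe set that differed by 0.09 ± 0.12, against -0.08 ± 0.09 in the brighter one. In the cytosol, heat shock genes had lower means in TKI258 tumors in 9 of 9 cases, with list means of 10.02, 9.90 and 9.84 in TKI258 tumors and 10.13, 10.20 and 10.33 in water tumors.

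The 6 ERAD genes split evenly, 3 lower and 3 higher (1 and 5 after quantile normalization, 4 and 2 after median centring), and the 2 with the smallest p lay higher in TKI258 tumors. Derl3 encodes a derlin of the retrotranslocation channel that is abundant in secretory cells. It read 5.61, 5.78 and 5.89 in TKI258 tumors, against 5.58, 5.25 and 5.56 in water tumors, a difference of 0.30 ± 0.13 (limma adjusted p = 0.623) at a signal below the median of the array. Syvn1 encodes HRD1, the ubiquitin ligase of ERAD. It read 7.87, 7.89 and 8.13 in TKI258 tumors, against 7.84, 7.75 and 7.80 in water tumors, a difference of 0.17 ± 0.10 (limma adjusted p = 0.678). In both genes the groups did not overlap and TKI258 replicate 3 was highest. The plasma cell markers Jchain and Mzb1 were highest in the same tumor: Jchain read 5.68, 6.55 and 9.87 in TKI258 tumors, against 7.42, 4.61 and 5.53 in water tumors, and Mzb1 read 6.15, 6.04 and 7.86 in TKI258 tumors, against 6.29, 5.60 and 5.85 in water tumors. Without that tumor the differences were 0.23 for Derl3 and 0.09 for Syvn1, and without water replicate 2 that of Derl3 was 0.19. Herpud1, Edem1, Sel1l and Derl1, which bring misfolded proteins to the ligase or through the membrane, differed by -0.03 to 0.01.

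Promoters of the XBP1/ATF6 arm often held the ER stress response element (ERSE), searched as CCAAT, 9 bases of any kind, then CCACG, on both strands. It was present in 7 of the 14 XBP1/ATF6-arm genes with a window and in 0 of 12 ATF4-arm genes and 0 of 5 serine and one-carbon genes, against 0.137% of all genes with a window and 0.119% of all windows. The genes were listed for their known roles, so these shares describe the list and are no independent evidence. The UPRE core (GACGTG) was found in 3 of 36 members (Hspa5, Pdia6 and Ddit3), against 7.15% of all genes and 6.38% of all windows, and no matches of different motifs overlapped. The 7 ERSE holders are shown because this is the element through which ATF6 and XBP1 are known to act on chaperone genes: Hspa5 with 250 upstream bases (chr2:34771840-34772089, plus strand, where the short run of capitals is the UPRE core and the long one the ERSE), and Hsp90b1 (chr10:86705518-86705671, minus strand, 2 copies), Dnajc3 (chr14:118937812-118937860, plus strand), Pdia6 (chr12:17266476-17266524, plus strand), Creld2 (chr15:88819505-88819553, plus strand), Syvn1 (chr19:6046517-6046565, plus strand) and Derl3 (chr10:75893227-75893275, plus strand) with 15 bases on each side. Capitals mark the element, in either orientation.
Hspa5: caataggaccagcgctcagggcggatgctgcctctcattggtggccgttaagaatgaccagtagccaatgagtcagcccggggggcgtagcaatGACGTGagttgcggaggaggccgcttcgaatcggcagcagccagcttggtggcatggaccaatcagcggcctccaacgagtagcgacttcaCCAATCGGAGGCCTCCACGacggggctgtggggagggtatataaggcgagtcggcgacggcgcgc
Hsp90b1: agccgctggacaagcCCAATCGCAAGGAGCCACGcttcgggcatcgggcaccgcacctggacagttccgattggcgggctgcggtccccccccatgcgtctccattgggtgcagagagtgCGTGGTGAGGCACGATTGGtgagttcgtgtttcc
Dnajc3: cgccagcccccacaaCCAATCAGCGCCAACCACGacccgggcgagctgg
Pdia6: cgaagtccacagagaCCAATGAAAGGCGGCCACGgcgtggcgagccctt
Creld2: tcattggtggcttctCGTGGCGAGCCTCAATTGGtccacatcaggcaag
Syvn1: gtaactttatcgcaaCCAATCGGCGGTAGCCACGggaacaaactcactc
Derl3: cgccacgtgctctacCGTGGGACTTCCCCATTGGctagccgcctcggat

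Genes with and without a motif had overlapping ranges of differences. The 7 ERSE holders had 4 lower and 3 higher means in TKI258 tumors, with differences from -0.10 to 0.30 and a median of -0.01. The 7 genes of the same arm with a window and no ERSE, Dnajb9 among them, had 6 lower and 1 higher, with differences from -0.33 to 0.01 and a median of -0.04. The 6 measured genes with the ATF4-C/EBP letters, Herpud1 included, had lower means in 6 of 6 cases and a median of -0.15. Among them, Herpud1 differed by only -0.0002 and Gars by -0.02, and Gars turned to 0.011 after quantile normalization. The 6 ATF4-arm genes with a window and no match had 5 lower and 1 higher and a median of -0.10. TKI258 replicate 3 carries both counts: without it the genes with the letters had 3 lower and 3 higher, those without a match also 3 and 3, while the ERSE holders had 4 lower and 3 higher and the 7 others of that arm had 7 lower.

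**Figure D3:**
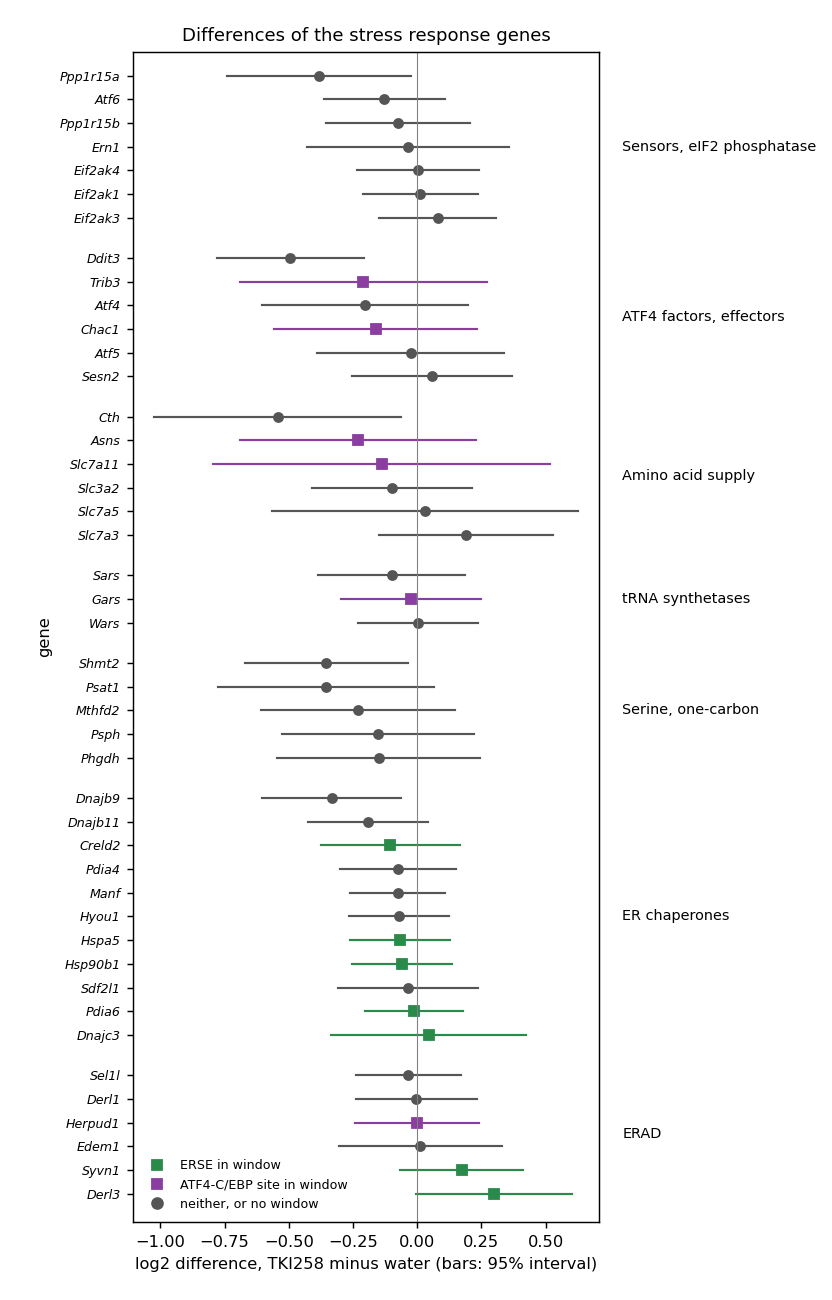
Difference in log2 signal (TKI258 minus water, x axis) of each measured stress response gene with its 95% interval, grouped by role. Green squares hold an ERSE in the promoter window, violet squares an ATF4-C/EBP site, and gray circles neither or no window. The intervals of Ppp1r15a, Ddit3, Cth, Shmt2 and Dnajb9 lie below 0, and all others include 0.

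The arms were set against each other as the mean of their genes in each tumor, minus the mean of the water tumors. The ATF4 arm holds 15 measured genes (factors, amino acid supply and tRNA synthetases), the XBP1/ATF6 arm 17 (ER chaperones and ERAD) and the serine and one-carbon arm 5. The ATF4 arm lay at 0.08, -0.11 and -0.36 in TKI258 replicates 1, 2 and 3, against -0.06, -0.02 and 0.07 in water replicates 1, 2 and 3. The TKI258 tumors thus lay on both sides of the water mean, and only TKI258 replicate 2 and 3 lay below the lowest water tumor. The group difference was -0.13 (SD 0.22 in TKI258 tumors and 0.07 in water tumors). Leaving out TKI258 replicate 3 gave -0.01, and leaving out TKI258 replicate 1 gave -0.24.

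The mean of the XBP1/ATF6 arm lay close to the water mean in all 6 tumors. Its values were -0.05, -0.06 and 0.02 in TKI258 tumors, against -0.01, 0.02 and -0.01 in water tumors. The difference was -0.03 (SD 0.05 in TKI258 tumors and 0.02 in water tumors). It came to -0.00013 after quantile normalization and -0.05 with the filter on low signal, which drops Derl3. This arm mean joins lists whose mean differences had opposite signs. List means of the ER chaperones ran from 10.21 to 10.29 in TKI258 tumors and from 10.31 to 10.39 in water tumors, a difference of -0.09 without overlap. The gap was narrow, and the median difference of this list went from -0.07 to -0.03 after quantile normalization. Dnajb9 had its largest difference (-0.33). The ERAD list mean differed by 0.07, with overlapping groups, but its median difference was 0.006, with 3 genes lower and 3 higher. Its highest differences were those of Derl3 (0.30, at a signal below the array median) and Syvn1 (0.17). The others lay between -0.03 and 0.01. The serine and one-carbon arm lay at -0.12, -0.20 and -0.43 in TKI258 tumors, against -0.02, -0.20 and 0.22 in water tumors. Its difference was -0.25 (SD 0.16 in TKI258 tumors and 0.21 in water tumors), -0.16 without TKI258 replicate 3 and -0.14 without water replicate 3. TKI258 replicate 2 and water replicate 2 had nearly the same value in this arm, and the groups overlapped.

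**Figure D4:**
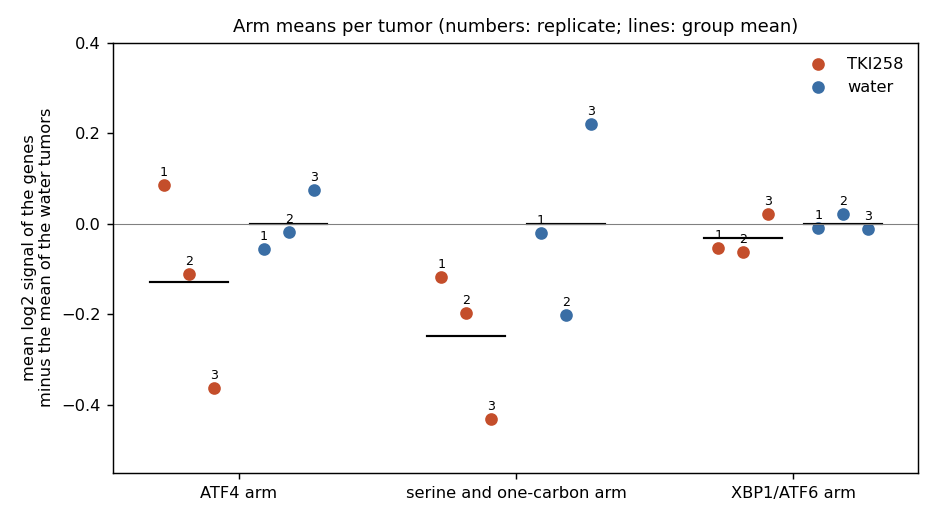
Mean log2 signal of the ATF4 arm (15 genes), the serine and one-carbon arm (5 genes) and the XBP1/ATF6 arm (17 genes) in each tumor, minus the mean of the water tumors (y axis), TKI258 left and water right. Points are tumors numbered by replicate and lines are group means. The TKI258 tumors span 0.08 to -0.36 in the ATF4 arm and -0.06 to 0.02 in the XBP1/ATF6 arm.

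The distance between the arms differed from tumor to tumor within the TKI258 group. The ATF4 arm minus the XBP1/ATF6 arm was 0.14, -0.05 and -0.38 in TKI258 tumors, against -0.05, -0.04 and 0.09 in water tumors. In the ATF4 arm TKI258 replicate 1 was the highest TKI258 tumor in 13 of 15 genes and TKI258 replicate 3 the lowest in 12 of 15. Over the genes with signal at or above the median, replicate 1 was highest in 40.3% and replicate 3 lowest in 61.8%, so a part of that order is shared by genes of like signal. In the XBP1/ATF6 arm TKI258 replicate 3 was the lowest TKI258 tumor in 5 of 17 genes and the highest in 9. It was the highest in 22.8% of the genes with signal at or above the median. The median SD of a gene in the ATF4 arm was 0.23 in TKI258 tumors and 0.13 in water tumors, against 0.14 and 0.11 over the genes with signal at or above the median. TKI258 replicate 3 is also the tumor with the highest B cell and adipocyte marker means and the lowest neutrophil marker mean. The neutrophil means given above have the same order as the ATF4 arm within both groups, and so do the means of the cytosolic heat shock list. Across the groups the neutrophil order differs. TKI258 replicate 1 had the highest ATF4 arm value of all 6 tumors (0.08), while its neutrophil mean of 6.89 lay below all water tumors (7.05 to 7.55). The part of cell content in the arm values was not tested.

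Other genes of these pathways, taken from 3 lists, gave no clearer pattern. Of 93 listed genes 84 were measured, 0 passed the adjusted threshold, 2 had an unadjusted p under 0.05 and a lower mean in TKI258 tumors (Atf3 and Nars), and 1 had a higher mean (Aldh1l1). Means were lower in 44 and higher in 40, with a median difference of -0.01; by list they were lower in 17 of 30 further integrated stress response genes, 5 of 11 serine and one-carbon genes and 22 of 43 ER genes. Atf3, a stress-induced partner of CHOP and ATF4, read 8.22, 8.13 and 8.03 in TKI258 tumors, against 8.22, 8.66 and 9.11 in water tumors. The difference was -0.53 ± 0.21 (limma adjusted p = 0.615), with the spread on the water side, and was -0.31 without water replicate 3. Nars, which charges tRNA with asparagine, read 11.09, 10.90 and 10.96 in TKI258 tumors, against 11.17, 11.21 and 11.25 in water tumors (-0.22 ± 0.09, limma adjusted p = 0.614). Cars, the synthetase for cysteine, differed by -0.29 ± 0.13 (limma adjusted p = 0.639).

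Aldh1l1, a cytosolic folate enzyme, read 6.46, 6.98 and 7.60 in TKI258 tumors, against 6.34, 6.11 and 6.46 in water tumors (0.71 ± 0.28, limma adjusted p = 0.614). It was 0.42 without TKI258 replicate 3. The adipocyte and B cell marker means given above follow the same order within the TKI258 group but not within the water group. Their part in this value was not tested. Fgf21, a hormone that ATF4 induces, had a signal below the median of the array and differed by 0.27 ± 0.12 (limma adjusted p = 0.637). Vldlr, a lipoprotein receptor and ATF4 target, differed by 0.41 ± 0.19 (limma adjusted p = 0.647). Without water replicate 2 these were 0.16 for Fgf21 and 0.23 for Vldlr. Xbp1 itself read 10.57, 10.51 and 10.39 in TKI258 tumors, against 10.25, 10.47 and 10.19 in water tumors (0.19 ± 0.11, limma adjusted p = 0.677), and the array signal does not separate its spliced from its unspliced form. Cebpb and Cebpg, the C/EBP partners of ATF4, differed by -0.13 ± 0.18 and -0.03 ± 0.08. Calr and Canx, the lectin chaperones calreticulin and calnexin, differed by 0.03 ± 0.08 and -0.03 ± 0.08.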

How the data were processed

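RNA of 6 tumors was measured on Affymetrix Mouse Gene ST arrays. The authors deposited a table of log2 signals, 1 value per probe set and array. Per the submitters' processing notes, the tools were RMA, affy and limma. No version or genome build is given in the sources used here. Array medians ran from 6.38 to 6.44, and small differences depend on the scaling. Precision is limited by the number of arrays.

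The platform annotation gave gene names, and a gene was represented by the probe set with exactly 1 gene and the highest mean over all 6 arrays. TKI258 was compared with water by limma 3.58.1 (R 4.3.3; lmFit and eBayes, group as the only term, two-sided) with Benjamini-Hochberg adjustment over all 34760 probe sets and a threshold of 0.05, after a check on simulated data. The differences planted in the simulated data were larger than that of any member. The check therefore does not show that differences of the size of the members' would be found. Arm means per tumor have no test. Members and lists were chosen with earlier results of these data known. Values in every tumor were given for members with an unadjusted p under 0.05, members without overlap and the 2 smallest p-values of each of 7 role lists. In the other pathway lists, Xbp1, Atf3, Cebpb, Cebpg, Calr, Canx and Fgf21 were named, with up to 6 of the smallest p-values.

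Alternatives were a filter on low signal, quantile normalization, median centring, a replicate block, a trended robust prior, weights per array, a mean over every probe set of a gene, each array left out, and both arrays high in B cell markers (TKI258 replicate 3 and water replicate 1) left out. Promoter sequences are from RefSeq (GRCm38.p6). The array annotation carries no coordinates here.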

Additional observations from a re-analysis of the deposited data

How the results depend on the processing

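The count of probe sets past the adjusted threshold was 0 in the chosen fit, 1 with both arrays high in B cell markers left out, and 0 to 3 with each array left out in turn, the 3 without water replicate 1. No member passed in any setting run. Lower members with an unadjusted p under 0.05 numbered 5 in the chosen fit, 3 with both arrays left out and 1 to 6 with single arrays left out. Higher members at that level numbered 0 to 1 with single arrays left out. The 1 was Derl3, without TKI258 replicate 1. The filter on low signal left 42 members and 1 higher member without overlap (Syvn1), against 2 in the chosen fit, since Derl3 was dropped. With the replicate number as a block, 0 probe sets passed and 3 lower members had an unadjusted p under 0.05. Deviations from the group means of same-numbered tumors correlated at -0.232, 0.186 and 0.00897 for replicates 1, 2 and 3, and 2 of the 6 tumors correlated best with their own number, so the numbers were not taken as pairs.

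Of 431 results of 31 named genes under the alternatives, 419 kept their direction and side of the threshold and 12 turned sign, in 6 genes with small differences. Slc7a11 was at 0.10 with array weights, 0.12 with both arrays left out and -0.45 to 0.14 with single arrays left out. Gars was at 0.011 with quantile normalization, 0.067 with both arrays left out and -0.10 to 0.045 with single arrays left out. Cebpb was at 0.035 with array weights and -0.24 to 0.045 with single arrays left out, and Chac1 at -0.28 to 0.0086. Cebpg was at 0.010 with quantile normalization and Calr at -0.017 with both arrays left out. The smallest adjusted p of a named gene under any alternative was 0.424. The cause of these turns was not tested. Signal over background limits Derl3, Slc7a3 and Fgf21, which lie below the array median and were dropped by the filter on low signal.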
